A study of Mus musculus with 10 samples.

Results

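Untreated wild-type mouse embryonic fibroblasts, measured on 2 of 10 Affymetrix arrays, were set against the other 8 arrays, and the members were taken by title. RNA came from cultures in DMEM with 10% FBS. The untreated wild-type (WT) cells had received no drug. The 8 other arrays held 4 groups of 2: cells with a conditional knockout (CDKO) allele of Dicer, the enzyme that cuts microRNA precursors, left untreated, given 1 µM or given 5 µM of 4-Orthohydroxy Tamoxifen (OHT) for 4 days, and WT cells given 5 µM for 4 days. The untreated WT arrays are thus the only ones here with neither the conditional allele nor the drug. The description of all 10 arrays speaks of a conditional Dicer knockout, while 4 titles name WT cells, and the titles were followed. The labels name no Cre driver and no embryonic age, and leave unsaid whether separate cultures lie behind the 2 arrays of a group. All p-values therefore measure the spread between arrays, which may be technical, and the small number of arrays limits the precision of every value.

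Mouse embryonic fibroblasts are primary cells grown out from the embryo body, and such cultures can hold cells of other embryonic lineages beside fibroblasts. They divide for a limited number of passages and then slow down, while inhibitors of the cell cycle encoded at the Cdkn2a locus accumulate. Genes needed for DNA replication are switched on as a cell enters S phase, largely through E2F factors, and those for chromosome segregation are switched on later, in G2 and mitosis. In RNA from a whole culture, fewer cells of one kind and less RNA per cell cannot be told apart.

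The promoters of 5 genes are shown first, because the genes for cell division carried the most uniform difference described below and are known to share promoter elements. Mitosis and DNA replication genes were taken in order of their difference, and those without the marked motifs in the printed stretch were passed over. The presence of the motifs in these 5 was thus fixed by the choice. The stretches were taken from RefSeq on build GRCm38.p6, from 200 bases before to 30 bases after the annotated gene start, and are printed 5′ to 3′ on the strand of the gene. They lie at chr1:189688057-189688286 (minus strand) for Cenpf, chr7:135716350-135716579 (minus) for Mki67, chr9:83834489-83834718 (plus) for Ttk, chr11:98907951-98908180 (plus) for Cdc6 and chrX:93632126-93632355 (minus) for Pola1. In the first 3, all mitosis genes, capitals mark CCAAT, the box bound by the factor NF-Y, and TTTGAA, the core of the cell cycle homology element, on either strand. In Cdc6 and Pola1, both replication genes, capitals mark GCGGGAA, an E2F-type element, on either strand.
Cenpf: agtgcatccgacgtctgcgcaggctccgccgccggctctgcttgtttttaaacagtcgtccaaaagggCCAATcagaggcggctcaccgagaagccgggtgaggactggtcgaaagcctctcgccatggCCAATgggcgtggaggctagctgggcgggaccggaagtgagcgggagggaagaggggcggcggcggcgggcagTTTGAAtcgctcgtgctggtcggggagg
Mki67: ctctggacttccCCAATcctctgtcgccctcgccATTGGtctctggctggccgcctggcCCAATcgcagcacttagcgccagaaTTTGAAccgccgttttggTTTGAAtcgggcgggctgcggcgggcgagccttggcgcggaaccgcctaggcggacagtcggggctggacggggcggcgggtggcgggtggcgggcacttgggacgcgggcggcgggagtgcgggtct
Ttk: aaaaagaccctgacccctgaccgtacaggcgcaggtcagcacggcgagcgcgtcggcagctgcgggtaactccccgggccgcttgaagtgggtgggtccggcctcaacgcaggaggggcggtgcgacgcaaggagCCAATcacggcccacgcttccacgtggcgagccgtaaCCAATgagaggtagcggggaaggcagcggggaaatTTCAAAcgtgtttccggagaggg
Cdc6: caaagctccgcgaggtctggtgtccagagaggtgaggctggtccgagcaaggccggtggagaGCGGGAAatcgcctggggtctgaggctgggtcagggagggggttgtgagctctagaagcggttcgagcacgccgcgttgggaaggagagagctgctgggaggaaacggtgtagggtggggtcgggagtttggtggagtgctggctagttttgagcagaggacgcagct
Pola1: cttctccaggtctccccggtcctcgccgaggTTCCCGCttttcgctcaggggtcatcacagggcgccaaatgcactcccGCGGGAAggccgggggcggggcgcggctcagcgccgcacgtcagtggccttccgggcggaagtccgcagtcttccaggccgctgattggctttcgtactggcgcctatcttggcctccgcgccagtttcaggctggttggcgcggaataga

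Over windows of 300 bases, from 250 before to 50 after the start and searched on both strands, CCAAT occurred in 18 of the 23 mitosis genes with a window (78.3%) and TTTGAA in 17 (73.9%), with both in 15 (65.2%). The same 2 motifs occurred in 39% and 11.4% of the windows of 8507 tested genes, and together in 4.64%. GCGGGAA was in none of the 23 mitosis windows but in 11 of 21 replication windows (52.4%), against 8.79% of all tested genes. CCAAT was not particular to the mitosis list: 13 of 21 replication windows (61.9%) and 15 of 16 windows of the cholesterol list described further on (93.8%) held it, against 3 of 11 muscle windows. TTTGAA was in 4 replication windows, 1 cholesterol window and no muscle window. At most 1 base, at their ends, can be shared by CCAAT and TTTGAA. A match is a description of these letters and neither a binding site nor a cause of the values that follow.

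Expression values are log2 values made by the authors with GCRMA, and a mean under 4 was treated as not distinguishable from background. Where either level is under 4, the difference is taken from background and does not give a fold in transcript. The 18S ribosomal RNA control, the mean of 3 control probe sets, set the untreated WT arrays apart before any gene was considered. It read 11.64 and 11.21 on the untreated WT arrays, against 10.16 on replicate 2 of CDKO cells at 1 µM and 5.21 to 8.44 on the other 7 arrays. The untreated WT mean was 4.65 log2 units higher than that of the 8 others (exact two-sided permutation p = 0.0222, the smallest that the 45 ways of choosing 2 of 10 arrays allow, and 0.0889 adjusted over 4 controls). The Gapdh control read further toward its 3′ end on the same 3 arrays. Its 3′ minus 5′ difference was 0.89 and 0.67 on the untreated WT arrays, against 1.58 on replicate 2 of CDKO at 1 µM and -0.31 to 0.07 on the other 7 (exact permutation p = 0.0889). The corresponding Actb difference was highest on these 3 arrays too. It was 0.84 and 0.66 on the untreated WT arrays, against 1.31 on replicate 2 of CDKO at 1 µM and 0.31 to 0.61 on the other 7. With replicate 2 of CDKO at 1 µM counted among the 8 others, it did not pass the exact permutation test (p = 0.4). The spike-in controls did not pass the exact permutation test either (p = 0.133). The part of these controls in the gene differences was not tested beyond a fit with the 18S value as a covariate, and the calls left in that fit are given with the counts and lists.

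**Figure D1:**
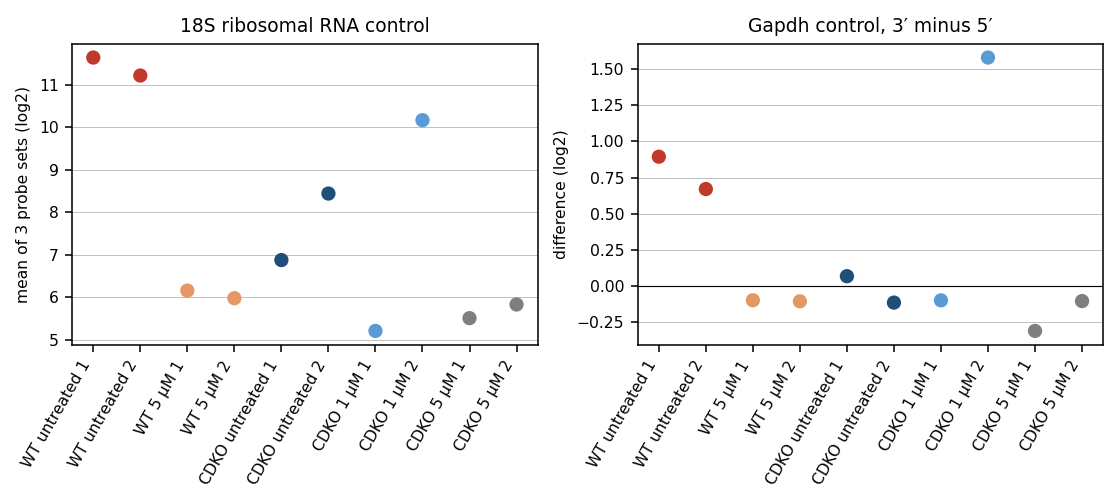
Each point is 1 array, with the mean log2 value of the 3 probe sets for 18S ribosomal RNA at left and the 3′ minus 5′ log2 difference of the Gapdh control at right. The untreated WT arrays (red, left) read 11.64 and 11.21 for 18S, and replicate 2 of CDKO at 1 µM read 10.16 and had the highest Gapdh difference of the 10 arrays, 1.58.

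The 2 untreated WT arrays resembled each other closely and stood off the rest. Across 20032 probe sets they correlated at 0.991, with a median absolute difference of 0.14. The array nearest to them was replicate 2 of CDKO at 1 µM (0.946 and 0.935), and the 5 µM CDKO arrays were the farthest (0.867 to 0.885). Among the 8 others, replicate 2 of untreated CDKO and replicate 1 of CDKO at 1 µM correlated at 0.993, although they carry different treatment labels, while the replicates of those groups correlated at 0.949 and 0.929. These figures run across probe sets of arrays processed together and are descriptions. The labels were followed, and the counts and leading lists are also given with single arrays left out. The median SD between the 2 arrays of a group was 0.10 in untreated WT cells, 0.07 in WT cells at 5 µM and 0.29 to 0.35 in the CDKO groups, and the fit pooled them.

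A total of 20032 probe sets had a mean of 4 or more in untreated WT cells or in the 8 others and were tested. Untreated WT cells were compared with the mean of the 4 other groups with limma, and a probe set or gene is said to be called where its adjusted p was under 0.05. Called higher in untreated WT were 2134 probe sets (10.7%) and lower were 1622 (8.1%). Both untreated WT arrays lay above all 8 others for 3158 probe sets (15.8%) and below all 8 for 2445 (12.2%). Against each of the 4 groups taken alone, 500 (2.5%) were called higher every time and 123 (0.614%) lower every time. With the 18S control as a covariate, 137 probe sets in all were called instead of 3756. Without replicate 2 of CDKO at 1 µM the number was 6496, and without replicate 1 or replicate 2 of untreated WT it was 781 or 615.

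Counted as genes, each by its brightest probe set, 10438 were tested, of which 1463 (14%) had both untreated WT arrays above all 8 others and 1267 (12.1%) had both below. The fit called 812 genes (7.78%) higher and 711 (6.81%) lower, and 139 (1.33%) and 63 (0.604%) passed against each group alone. The median difference over all genes was 0.05. Among the 1463 genes above, 1235 had all 8 others at 4 or more and 88 had all 8 under it. Those 88 entered the test only through untreated WT cells and so had to differ. Beside the 30 genes with the largest differences, 120 members of the gene lists described here were called. Cdh1, Actc1, Myh3, Tnni1, Adipoq and Upk3b were the 6 of them still called with the 18S covariate. All 6 passed the filter only through untreated WT cells and were under background on the other 8 arrays, so they too had to differ. Of the 31 lists with a call among 2 or more tested genes, 6 kept any call with the 18S covariate, those of lung (1), simple epithelium (2), muscle (4), bone (1), adipocyte (1) and mesothelium (1). Without replicate 1 or 2 of untreated WT, 13 or 11 lists had a call. Of the same genes, 15 were still called without replicate 1 of untreated WT, 15 without replicate 2, and 59 and 55 without replicate 1 or 2 of WT cells at 5 µM. The 3 genes nearest the boundary on the upper side, Map1lc3a, Ocrl and Trnt1, exceeded the highest other array by 0.000511 to 0.000913 log2 units, and Ttbk2, Tdrd3 and Acsl5 stood at -0.000868 to -0.00268 from it. On the lower side, Mitd1, Vat1l and Celf4 lay below the lowest other array by 6.13e-05 to 0.00074, and Tcp1, Fam98b and Elp5 had margins of -0.000176 to -0.000682 and so fell short of it.

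The gene targeted in the study, Dicer1, read 8.97 and 9.10 in untreated WT cells, against 7.64 and 7.19 in WT cells at 5 µM, 7.09 and 5.99 in untreated CDKO cells, 5.40 and 8.30 in CDKO cells at 1 µM and 5.83 and 5.78 at 5 µM. Both untreated WT arrays lay above all others. The difference was 2.38 ± 0.66 (SE; limma adjusted p = 0.0449), and a second probe set gave 1.22 ± 0.20. The labels and files used here do not place these probes relative to the deleted stretch. Fibroblast markers did not separate the untreated WT cells as a list, set against 7.78% of all genes called higher and 6.81% called lower. Of 17 tested, Pdgfra, a growth factor receptor of mesenchymal cells, was called higher, with 3 probe sets at 1.61, 0.80 and -0.05, Mfap5, a microfibril protein, was called lower, and 3 others (Lum, Tcf21 and Pi16) did not pass the filter. Their summed level was 17.6 and 17.7 log2 units in untreated WT cells, against 16.8 to 17.7 in the others. Col1a1, the main chain of type I collagen, read 15.29 and 15.36 in untreated WT cells, against 11.79, 14.64 and 15.28 as lowest, median and highest of the others.

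Most mitosis genes were called higher in untreated WT cells. All 27 tested had both untreated WT arrays above the 8 others, 24 were called higher and none lower, with a median difference of 2.08, against 7.78% called higher and a median of 0.05 over all genes tested. Nuf2, a kinetochore protein, passed the filter only through untreated WT cells, and of the other 26 genes 23 were called. Cenpf, a kinetochore protein of G2 and mitosis, read 9.29 and 9.35 in untreated WT cells, against 4.55, 4.78 and 7.80 as lowest, median and highest of the others. The highest of them was replicate 2 of CDKO at 1 µM, and the groups did not overlap (difference 3.88 ± 0.78, adjusted p = 0.0167). Mki67, the antigen used to mark dividing cells, read 11.80 and 11.74 in untreated WT cells, against 7.54, 8.08 and 10.21 in the others. It was 10.7-fold higher (limma adjusted p = 0.0138), again with replicate 2 of CDKO at 1 µM nearest. Ttk, the spindle checkpoint kinase, read 7.78 and 7.75 in untreated WT cells, against 3.03, 4.35 and 6.73 in the others, the nearest being replicate 1 of untreated CDKO (adjusted p = 0.0405).

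Cenpe, a kinetochore motor, read 9.49 and 9.52 in untreated WT cells, against 5.41, 5.65 and 8.73 in the others, a difference of 3.25 ± 0.74. Kif2c, a microtubule depolymerase, was 7.72-fold higher and Kif11, which separates the spindle poles, 7.26-fold higher. Kif23, needed for cytokinesis, was 6.37-fold higher, and Plk1, a kinase that drives mitotic entry, 6.25-fold higher (adjusted p = 0.00655). Of the 27, only Ccna2, the S and G2 phase cyclin, and Nek2, a centrosome kinase, passed against each of the 4 groups alone. The 3 that missed the threshold were Ccnb2 (1.63 ± 0.48, adjusted p = 0.053), Kif20a (1.29 ± 0.49, 0.102) and Mad2l1 (0.97 ± 0.29, 0.0547). Aspm, a spindle pole protein outside the list, was among the 15 largest differences, at 8.22 and 8.28 in untreated WT cells, against 2.37, 4.21 and 7.23 in the others.

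The array that came nearest in these genes was also the nearest in the 18S control. Replicate 2 of CDKO at 1 µM was the highest of the 8 others for 19 of the 27 mitosis genes, and replicate 1 of untreated CDKO for the other 8. Relative to the median of the remaining 7 arrays, the median mitosis gene was 2.31 higher in untreated WT cells and 1.56 higher on replicate 2 of CDKO at 1 µM. With the 18S control as a covariate none of the 27 passed and their median difference was 1.14, still with all 27 above the 8 others. Without either untreated WT array none passed, without either WT array at 5 µM 13 passed, and without replicate 2 of CDKO at 1 µM 26 passed.

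Of 26 DNA replication genes tested, 12 were called higher and none lower, 17 had both untreated WT arrays above the others, and the median difference was 1.09. Over all genes, 7.78% were called higher and 14% had both untreated WT arrays above the others. Mcm10, an initiation factor, read 7.63 and 7.09 in untreated WT cells, against 3.95, 4.49 and 6.55 in the others (adjusted p = 0.0286). Lig1, the ligase that joins Okazaki fragments, was 4.43-fold higher (adjusted p = 0.0154). Cdc6, which loads the MCM helicase, read 7.09 and 7.29 in untreated WT cells, against 4.47, 4.98 and 6.48 in the others. Pola1, the catalytic subunit of DNA polymerase alpha, read 7.41 and 8.06 in untreated WT cells, against 5.16, 5.66 and 6.85 in the others. In each of these 4 the untreated WT arrays cleared the highest other array, which was replicate 2 of CDKO at 1 µM. The helicase subunits Mcm6, Mcm5, Mcm7 and Mcm3 were called higher by 1.25 to 1.75 log2 units, whereas Mcm2 differed by 0.27 ± 0.18 (adjusted p = 0.315) and Pcna, the sliding clamp, was not outside the other arrays. Replicate 2 of CDKO at 1 µM was the highest of the others for 15 of the 17 that cleared the range, and none of the 26 passed with the 18S covariate or without either untreated WT array.

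Of 9 genes for nucleotide synthesis, 2 were called higher, and neither was with the 18S covariate or without either untreated WT array. Rrm2, the S phase subunit of ribonucleotide reductase, read 12.90 and 13.00 in untreated WT cells, against 11.33, 11.67 and 12.09 in the others (adjusted p = 0.00861). Tk1, thymidine kinase, was called too (adjusted p = 0.0254), although replicate 2 of CDKO at 1 µM at 8.54 lay between the untreated WT arrays at 8.87 and 8.47. Over all genes, 7.78% were called higher. Rad54l, a recombination protein, was among the 15 largest, at 6.65 and 6.26 in untreated WT cells, against 2.36, 2.49 and 3.68 in the others, all under background. Other Rad54l probe sets did not pass the filter.

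Among 7 inhibitors of the cell cycle, 3 were called lower in untreated WT cells and none higher, against 6.81% called lower over all genes. Cdkn2a, which encodes p16Ink4a and p19Arf, read 3.45 and 3.78 in untreated WT cells, both at background level, against 6.74, 8.78 and 10.73 in the others. The lowest of the others were both WT arrays at 5 µM (6.74 and 6.87), and no array overlapped. Its difference of -4.98 ± 0.38 (limma adjusted p = 0.000537) also passed against each group alone. Cdkn2b, its neighbour on chromosome 4, read 11.71 and 11.62 in untreated WT cells, against 12.43, 12.89 and 13.24 in the others (adjusted p = 0.014). Cdkn1a, the p53-induced inhibitor p21, read 12.49 and 12.42 in untreated WT cells, against 13.07, 13.41 and 13.80 in the others (adjusted p = 0.0183). Cdkn2c, the inhibitor p18, lay above all others but did not pass (1.76 ± 0.54, adjusted p = 0.0611). Cdkn2a alone of the 3 calls was still called with either untreated WT array left out. With the 18S covariate none of the 3 was called, and Cdkn2a differed by -4.13 ± 0.64 (limma adjusted p = 0.0565).

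Of 23 genes known as p53 targets, 10 were called lower and none higher, against 6.81% called lower over all genes. Both untreated WT arrays were below the others for 10, against 12.1% of all genes, and the median difference was -0.66. Pmaip1, the death-promoting protein Noxa, read 8.56 and 8.41 in untreated WT cells, against 10.51, 11.23 and 12.00 in the others, with no overlap and a 6.77-fold lower level (adjusted p = 0.00514). Gadd45a, a growth arrest protein, was lower by 1.19 and Plk2 by 1.09 log2 units, and Fas, the death receptor, by 0.95. Sesn1, a stress-induced regulator of mTORC1, was the 1 gene of the list above all others, at 9.06 and 9.12 in untreated WT cells, against 6.91, 7.49 and 8.87 (adjusted p = 0.0839). The list made no call with the 18S covariate or without either untreated WT array.

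**Figure D2:**
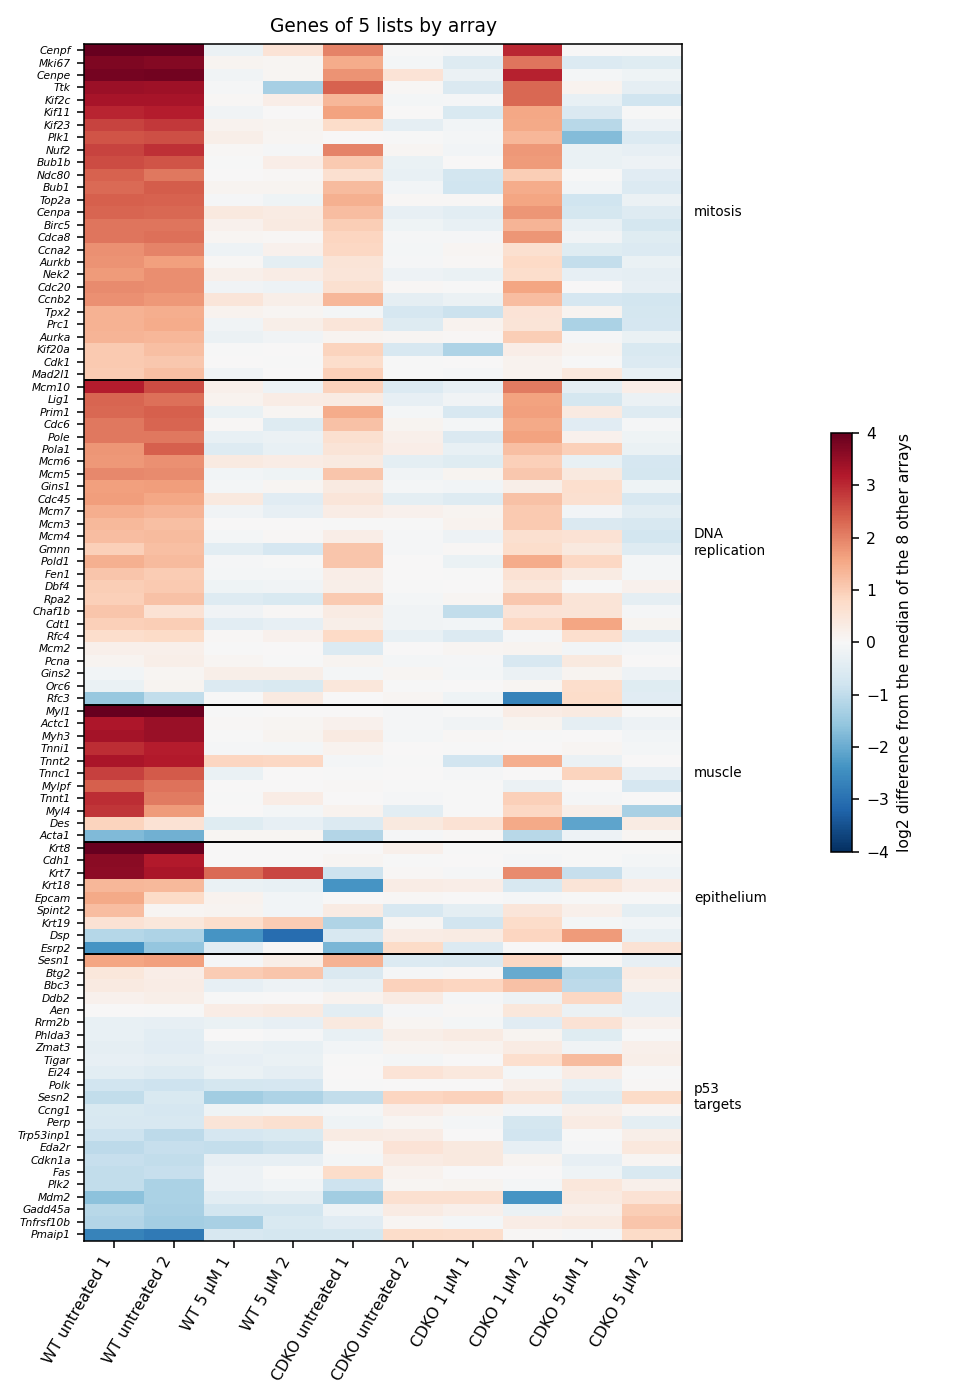
Each row is a tested gene of the mitosis, DNA replication, muscle, epithelium or p53 target list and each column an array, coloured by the log2 difference from the median of the 8 arrays other than untreated WT, with colours saturated beyond 4 units. The 27 mitosis genes are red on both untreated WT arrays and paler red on replicate 2 of CDKO at 1 µM and replicate 1 of untreated CDKO, while several muscle and epithelial genes that are red on the untreated WT arrays are under background, and near white, on the other 8.

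Genes of other lineages were among the largest differences. The 15 genes with the largest positive difference had 3.72 log2 units or more, 11 of them passed against each group alone, and for 8 of them all 8 other arrays were under background. These 15 were chosen by the same values and their levels are given as descriptions. Sftpc, surfactant protein C of alveolar type II cells, read 9.17 and 9.33 in untreated WT cells, against 2.17, 2.19 and 2.76 in the others (difference 6.99 ± 0.18, limma adjusted p = 4.3e-06). Only the untreated WT arrays were above background. A second Sftpc probe set was under background on every array, at 3.06 and 3.09 in untreated WT cells, against 3.08 to 3.18 in the others. Scgb1a1, the secretoglobin of airway club cells, read 4.21 and 5.08 in untreated WT cells, against 2.59 to 2.68 in the others (2.01 ± 0.22). Of 6 lung genes tested, these 2 and Ager, a receptor of alveolar type I cells, passed the filter only through untreated WT cells. Their mean thus had to be higher there. Ager was not called and overlapped, at 4.53 and 3.51 in untreated WT cells, against 3.11 to 4.69 in the others. Its second probe set disagreed, at 5.92 and 6.43, against 2.13 to 2.20 (4.02 ± 0.17). Of the other 3 lung genes none was called, and 11 further lung markers did not pass the filter. Among the latter were the other surfactant genes Sftpb, Sftpa1 and Sftpd and the transcription factor Nkx2-1, whose highest values in untreated WT cells were 1.85, 2.44, 2.42 and 1.98. The summed level of the 6 tested lung genes was 13.6 and 13.5 in untreated WT cells, against 11.9 to 14.3 in the others. Most of that sum was Lyz1, a lysozyme gene, at 13.41 and 13.29 in untreated WT cells, against 11.43 to 14.25 in the others. The sum therefore says little of the other lung genes.

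Of 9 simple epithelial genes tested, Krt8, Cdh1 and Epcam passed the filter only through untreated WT cells and so had to be higher there. Of the other 6, 1 (Krt7) was called higher and none lower, against 7.78% and 6.81% of all genes. Krt8, a keratin of simple epithelia, read 8.59 and 9.04 in untreated WT cells, against 2.92, 2.95 and 3.15 in the others, and its other 2 probe sets gave differences of 6.45 and 6.42. Cdh1, E-cadherin, read 6.78 and 6.34 in untreated WT cells, against 3.11 to 3.24 in the others (3.39 ± 0.16, adjusted p = 8.62e-05). Both were at background on all 8 other arrays. Krt7 was different, since both WT arrays at 5 µM were high too: it read 8.28 and 7.94 in untreated WT cells, against 6.95 and 7.36 in WT cells at 5 µM and 3.76 to 6.59 in CDKO cells. Epcam reached 4.47 and 3.72 in untreated WT cells, against 2.86 to 3.11 in the others. A second Epcam probe set overlapped and did not pass the filter, at 3.78 and 3.83, against 3.42 to 4.03. Krt18, the partner of Krt8, was high in all groups, at 9.54 and 9.50 in untreated WT cells, against 5.84, 8.20 and 8.71 in the others (adjusted p = 0.1). A further 14 of 23 epithelial genes on the array, among them Cldn3, Cldn7, Esrp1 and Grhl2, did not pass the filter. The summed level of the 9 was 10.9 and 10.8 in untreated WT cells, against 8.07 to 10.0 in the others.

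Of 11 skeletal and cardiac muscle genes tested, Myl1, Myh3, Actc1, Tnni1 and Tnnt1 passed the filter only through untreated WT cells and so had to be higher there. Of the other 6, 4 were called higher and 1 lower, against 7.78% and 6.81% of all genes. Myl1, a fast muscle myosin light chain, read 7.82 and 7.16 in untreated WT cells, against 3.16, 3.20 and 3.55 in the others. Myh3, the embryonic myosin heavy chain, read 6.64 and 6.75 in untreated WT cells, against 3.20, 3.30 and 3.66. Actc1, the cardiac actin also made in embryonic muscle, read 6.68 and 6.90 in untreated WT cells, against 3.08, 3.45 and 3.63. None of these 3 rose above background outside untreated WT cells. The troponins Tnni1 (3.05 ± 0.15), Tnnt2 (2.95 ± 0.48), Tnnc1 (2.55 ± 0.29) and Tnnt1 (2.38 ± 0.31) were also higher, as were the myosin light chains Mylpf and Myl4. Acta1, the skeletal actin, ran the other way at 11.16 and 10.99 in untreated WT cells, against 11.75, 12.91 and 13.00 in the others (adjusted p = 0.0275). The myogenic regulators Myod1, Myog and Myf5 and 16 other muscle genes did not pass the filter. Their highest values in untreated WT cells were 1.98 for Myod1, 2.53 for Myog and 2.99 for Myf5. The summed level of the 11 tested genes was 12.3 and 12.1 in untreated WT cells, against 11.9 to 13.1 in the others. Acta1, at up to 13.00 in the others, weighed heavily in that sum. The median level of the 11 was 7.66 and 7.16 in untreated WT cells, against 3.48 to 5.02. That median includes the 5 genes that had to be higher.

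Mef2c, a transcription factor of muscle and other lineages, read 7.71 and 7.82 in untreated WT cells, against 2.47, 3.17 and 5.66 in the others, and both WT arrays at 5 µM were above background. The mean of Mef2c over the 8 others was still under background. It thus passed the filter only through untreated WT cells and had to be higher there. Myocd, the coactivator of smooth muscle genes, read 6.05 and 5.52 in untreated WT cells, against 2.28, 2.42 and 3.95 (3.18 ± 0.35). Another Myocd probe set was under background on every array. Of 10 smooth muscle genes, Myocd passed the filter only through untreated WT cells and so had to be higher there. None of the other 9 was called, and Mylk, a kinase of contraction, differed by 1.70 ± 0.49 (adjusted p = 0.0508). With the 18S covariate 4 muscle genes and 2 epithelial genes were still called higher, all of them under background on the other 8 arrays. With either untreated WT array left out 7 muscle genes were called higher, and Acta1 was not called lower.

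**Figure D3:**
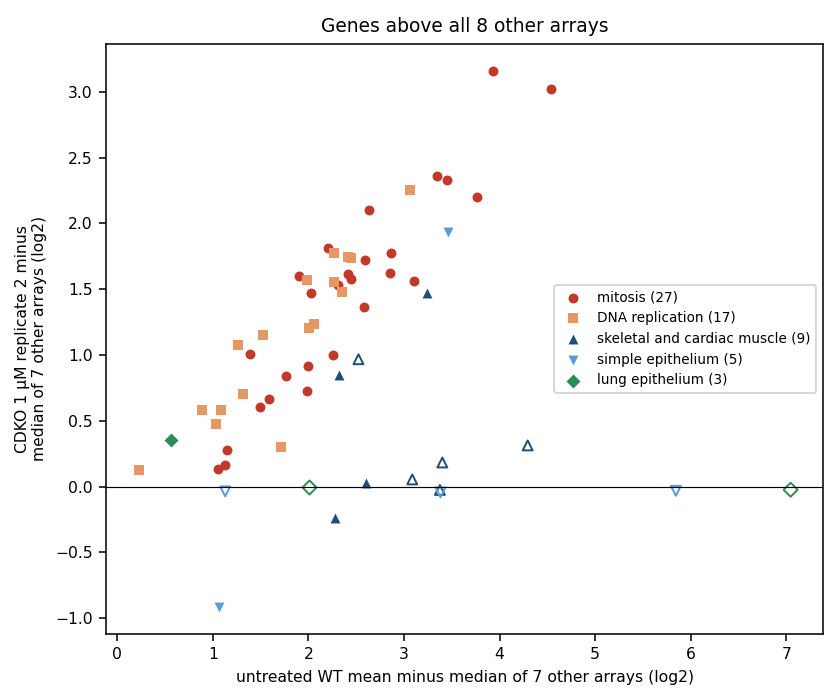
Each point is a gene with both untreated WT arrays above the 8 others, placed by the untreated WT mean (x) and by the value on replicate 2 of CDKO at 1 µM (y), each as a log2 difference from the median of the other 7 arrays. Most mitosis and replication genes lie well above the zero line on y (medians 1.56 and 1.20), and most muscle, epithelial and lung genes lie near it, many of them with open symbols. Open symbols mark genes under background on all 8 other arrays, a choice that holds most of them near the zero line. Both axes share the 7 arrays they are measured from.

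Single genes of bone, mesothelium and fat were higher as well, and their counts are to be read against the 7.78% called higher over all genes. Ibsp, the sialoprotein of mineralizing bone, read 8.40 and 8.68 in untreated WT cells, against 2.66, 2.71 and 2.78 in the others (5.83 ± 0.15, adjusted p = 4.3e-06). A second Ibsp probe set did not pass the filter, at 3.01 and 4.41 in untreated WT cells, against 2.80 to 3.04. The other tested bone gene, Mmp13, did not pass, and 10 further bone genes, including Sp7 and Alpl, did not pass the filter. Upk3b, a uroplakin of mesothelial cells, read 4.98 and 5.60 in untreated WT cells, against 2.00, 2.03 and 2.37 in the others, the 1 call of 5 mesothelial genes. A second Upk3b probe set was under background on every array, at 2.03 and 1.98 in untreated WT cells. Ibsp, Upk3b and Adipoq passed the filter only through untreated WT cells. Of 7 adipocyte genes 4 were called higher, and Adipoq alone of them was with the 18S covariate or without either untreated WT array. Lpl, lipoprotein lipase, read 10.82 and 10.74 in untreated WT cells, against 4.68, 7.13 and 9.03 in the others, and Cebpa, a regulator of fat cell formation, 9.19 and 8.99, against 4.99, 6.80 and 7.64. Adipoq, adiponectin, barely passed background at 4.08 and 4.20 in untreated WT cells, against 2.13 to 2.22 in the others. Pparg was called (0.88 ± 0.20) although replicate 1 of WT cells at 5 µM overlapped.

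Of 16 macrophage and leukocyte genes tested, 6 had both untreated WT arrays above the 8 others, against 14% of all genes, and 10 overlapped. Called higher were 2 of the 16, against 7.78% of all genes. The differences had a median of 1.45, and the calls were the complement gene C1qc (adjusted p = 0.0312) and Cd52 (0.0195). Csf1r, the receptor for macrophage growth factor, read 10.49 and 10.63 in untreated WT cells, against 6.82, 8.35 and 9.65 in the others (2.25 ± 0.65, adjusted p = 0.0517). A less bright Csf1r probe set was called (2.57 ± 0.36, limma adjusted p = 0.00501), and another was not (0.55 ± 0.17, 0.0596). The summed level of the 16 was 13.51 and 13.54 on the untreated WT arrays, against 11.02 to 14.19 in the others, with both WT arrays at 5 µM the highest. Endothelial markers gave no higher call of 5 tested, and Emcn was called lower. No erythroid gene passed the filter, and none of 4 neuronal, 3 cartilage, 3 kidney, 4 stratified epithelial or 2 liver genes was called. Of 7 glial genes 2 were called, S100b and Fabp7, with WT cells at 5 µM at the same or a higher level. Sox2, the 1 pluripotency gene tested, read 4.63 and 4.57 in untreated WT cells, against 3.18 to 4.05 in the others, and was called. It passed the filter only through untreated WT cells and so had to be higher there. Mitf, the 1 melanocyte gene tested, was not called.

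A total of 84 named genes were above background only in untreated WT cells. They were chosen by those values, so that their calls carry no count here. Only 13 of them reached 6 on both arrays, and the median level was 4.70. Beside those described they included Gprin3, of a family linked to neurite growth, at 7.04 and 7.17 in untreated WT cells, against 2.54, 2.67 and 2.75 in the others. A second Gprin3 probe set was under background on every array. Saa3, an acute-phase protein, read 8.02 and 7.79 in untreated WT cells, against 3.40, 3.75 and 3.86. Xrn1, a 5′ to 3′ exoribonuclease, read 7.02 and 6.69 in untreated WT cells, against 2.28, 3.06 and 3.88, while its other probe set did not rise above background.

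Regulators of Wnt signalling held some of the larger differences. Sfrp2, a secreted Wnt modulator, read 6.91 and 7.18 in untreated WT cells, against 2.34, 2.45 and 4.59 in the others, the last on replicate 1 of untreated CDKO. Fzd4, a Wnt receptor, read 9.26 and 9.78 in untreated WT cells, against 5.20, 5.60 and 6.77 (3.82 ± 0.35, adjusted p = 0.00113). Of 10 listed Wnt antagonists and ligands, Sfrp2 passed the filter only through untreated WT cells and so had to be higher there. Of the other 9, 1 (Sfrp1) was called higher, against 7.78% of all genes. Mid1, an X-linked ubiquitin ligase on microtubules, read 8.11 and 7.90 in untreated WT cells, against 5.93 and 6.00 in WT cells at 5 µM and 2.19 to 4.06 in CDKO cells. Its mean over all other arrays was under background, so Mid1 also passed the filter only through untreated WT cells and had to be higher there. Of 11 imprinted genes of growth control 3 were called higher, against 7.78% of all genes. They were Dlk1, a Notch ligand relative (2.43 ± 0.56), Slc38a4, an amino acid transporter (1.96 ± 0.33), and Peg3 (1.09 ± 0.25). Other Peg3 probe sets disagreed, at 2.58 ± 0.49 and -1.71 ± 1.05. Of 23 Hox genes 1 was called higher, Hoxb3, and 2 lower, Hoxb9 and Hoxb6, near the shares of all genes (7.78% and 6.81%). Of 4 sex-linked genes by their brightest probe sets, Uty was called higher and Kdm5d, Eif2s3y and Xist did not pass. Only through untreated WT cells did Uty pass the filter, and so it had to be higher there. Uty read 3.76 and 5.65 in untreated WT cells, against 2.90 to 3.23 in the others, while its 3 other probe sets were under the filter and differed by -0.72, -0.17 and 0.26. The 3 probe sets of Xist, the RNA that coats the inactive X chromosome, disagreed. They differed by 3.31 (limma adjusted p = 0.012), 2.37 (0.0715) and 0.39 (0.444), and the first read 12.10 and 12.28 in untreated WT cells, against at most 11.02 in the others.

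**Figure D4:**
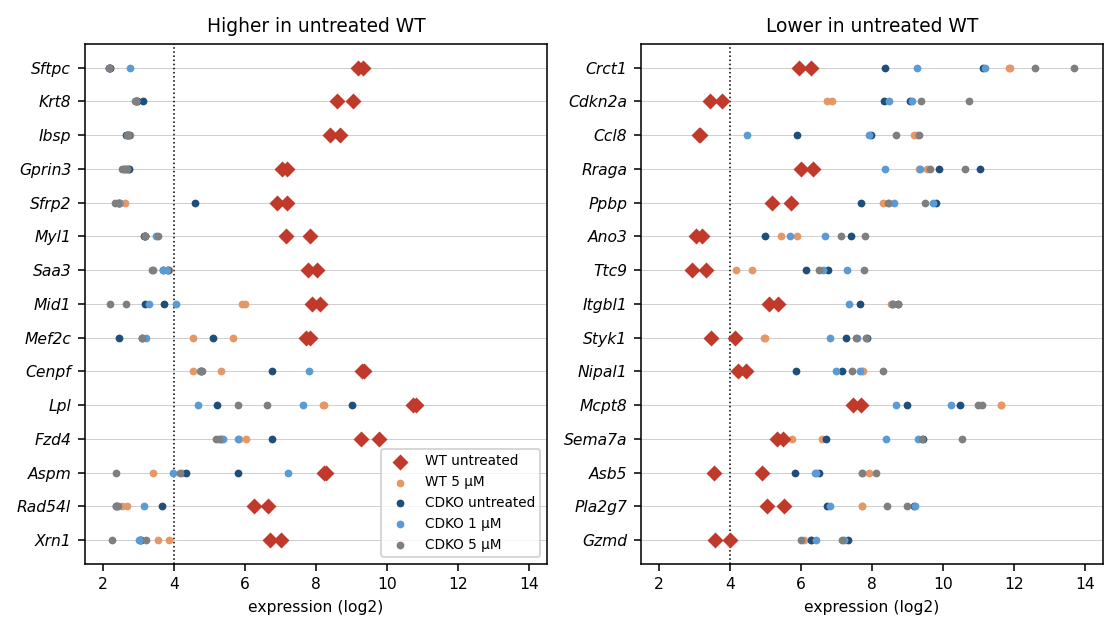
Log2 values on all 10 arrays for the 15 genes with the largest positive and the 15 with the largest negative difference among those called, with both untreated WT arrays outside the range of the others. Red diamonds are untreated WT arrays, dots the 8 others, and the dotted line is the background level of 4. For Sftpc, Krt8 and Ibsp the 8 dots lie under 4 and the diamonds above 8.

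Fewer genes were lower than higher when every group was required, and those with the largest downward differences included secreted proteins. The 15 largest ran from -5.12 to -2.81 log2 units, 7 passed against each group alone, and for 4 both untreated WT arrays were under background. Crct1, a protein of the epidermal differentiation cluster, read 5.95 and 6.29 in untreated WT cells, against 8.36, 11.52 and 13.67 in the others, the highest being CDKO cells at 5 µM. It was 34.8-fold lower (limma adjusted p = 0.00551). Ccl8, a chemokine for monocytes, read 3.13 and 3.15 in untreated WT cells, against 4.48, 8.32 and 9.32, with replicate 2 of CDKO at 1 µM lowest. Rraga, a GTPase that links amino acids to mTORC1, read 6.34 and 6.00 in untreated WT cells, against 8.36, 9.58 and 11.02 (11.6-fold lower). Ppbp, a platelet-type chemokine, was 10.3-fold lower. The protease genes Mcpt8 (-2.90 ± 0.47) and Gzmd (-2.81 ± 0.39) were lower too; both have close relatives in their families, and which member the probes report was not tested. The remaining genes were Ano3, Ttc9, Itgbl1, Styk1, Nipal1, Sema7a, Asb5 and Pla2g7, at -3.26 to -2.82.

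Genes of cholesterol synthesis and uptake were called lower for 11 of 19, with none higher and a median of -0.82, yet only 5 lay below all others. Over all genes, 6.81% were called lower and 12.1% lay below all others. Sc5d, a late enzyme of the pathway, read 9.18 and 9.15 in untreated WT cells, against 9.86, 10.87 and 11.93 in the others (3.39-fold lower, adjusted p = 0.00668). Fdps, which makes farnesyl diphosphate, read 11.13 and 11.15 in untreated WT cells, against 10.79, 12.61 and 13.53, so that replicate 2 of CDKO at 1 µM lay lower still. Cyp51, the lanosterol demethylase, read 11.15 and 11.20 in untreated WT cells, against 12.87 and 12.88 in WT cells at 5 µM, 11.36 to 11.60 in CDKO cells without drug or at 1 µM, and 12.78 and 12.86 in CDKO cells at 5 µM. The list's summed level was 15.08 on both untreated WT arrays, against 15.05 to 15.53 on the 4 CDKO arrays without drug or at 1 µM and 16.46 to 16.55 on the 4 arrays at 5 µM, WT and CDKO. No member was called without either untreated WT array or with the 18S covariate, and 2 were called without either WT array at 5 µM. Of 4 genes for cholesterol efflux, the transporter Abca1 (3.37 ± 0.65) and Apoe (1.49 ± 0.41) were called higher, both overlapping other arrays. Over all genes, 7.78% were called higher. Neither Abca1 nor Apoe was called with the 18S control or the spike-in controls as a covariate.

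Interferon-stimulated genes had a negative difference in all 16 tested, with a median of -0.97, and 5 were called lower, against 6.81% of all genes. Bst2, the tether of budding viruses, read 6.99 and 6.87 in untreated WT cells, against 7.66, 8.92 and 9.75 in the others (adjusted p = 0.00885). Ifit3, an antiviral protein that binds RNA complexes, read 5.45 and 6.22 in untreated WT cells, against 6.88, 8.07 and 9.52. Usp18, which trims ISG15, was called (-3.60 ± 0.75) although replicate 2 of CDKO at 1 µM at 2.66 lay below the untreated WT arrays at 2.76 and 3.10. That array was the lowest of the others for all 5 genes called, and 9 members were called when it was left out. With the 18S covariate the median was -0.10 and none was called.

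Lists of oxidative stress, lysosomal and secreted genes held calls in differing shares, to be read against the 6.81% called lower over all genes. Nqo1, a quinone reductase induced by NRF2, read 6.69 and 7.07 in untreated WT cells, against 8.27, 8.75 and 11.76 in the others, with no overlap and a 5.38-fold lower level (adjusted p = 0.00128). Hmox1, haem oxygenase, was 6.1-fold lower and Srxn1, sulfiredoxin, 2.9-fold lower, and these were the 3 calls of 12 NRF2 and aryl hydrocarbon receptor targets. Of 19 lysosome and autophagy genes 6 were called lower, led by Gpnmb, a membrane glycoprotein of stressed lysosomes, at 8.97 and 8.88 in untreated WT cells, against 8.98, 10.37 and 12.18. Of 18 secreted inflammatory and senescence genes 3 were called lower, Ccl8, Ccl7 and Ereg, and 2 higher, Hgf and Cxcl5. Il6 read 7.50 and 8.04 in untreated WT cells, against 7.91, 10.35 and 10.99 in the others (adjusted p = 0.0668). Of 29 extracellular matrix genes 2 were called lower, a share near that of all genes: Mgp, an inhibitor of calcification (-1.95 ± 0.27), and Thbs1, thrombospondin (-1.12 ± 0.26). Fmod, fibromodulin, had the largest difference of the list (4.56 ± 1.61) and did not pass by its brightest probe set (limma adjusted p = 0.0866). On it, replicate 2 of CDKO at 1 µM read 9.94 beside the untreated WT arrays at 10.98 each. Other Fmod probe sets were called higher, at 2.59, 2.86, 3.55 and 2.62 (limma adjusted p = 0.0119 to 0.0306), and another at 3.11 was not (0.0759). Of 22 hypoxia and glycolysis genes 2 were called lower, of 13 immediate early genes 2, and of 18 genes of the unfolded protein and integrated stress response 1. None of 17 cytosolic ribosomal protein genes was called by limma, with a median of -0.04 (0.03 with the 18S covariate) and 3 below and 1 above all others. Of 12 genes of the microRNA machinery, Dicer1 was the 1 called.

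**Figure D5:**
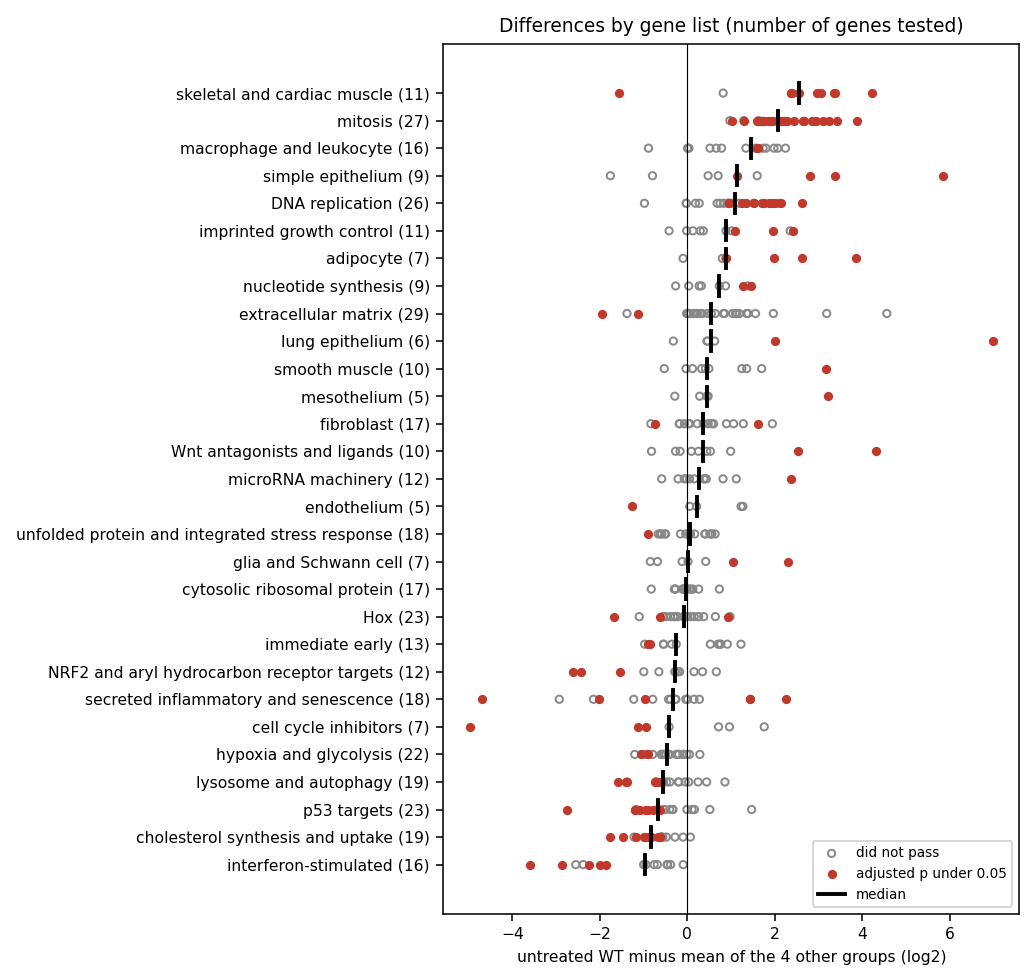
Each circle is a tested gene, placed by the log2 difference of untreated WT cells from the mean of the 4 other groups and filled where the limma adjusted p was under 0.05, with the median of each list as a bar. Mitosis has a median of 2.08, and the cholesterol and interferon lists lie at -0.82 and -0.97, beside a median of 0.05 over all 10438 genes.

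Across the 10438 genes, replicate 2 of CDKO at 1 µM was the highest of the 8 others for 43.9% of the genes above all 8 in untreated WT cells, against 31.1% of all genes. It was the lowest of the 8 for 35.9% of the genes below all 8, against 13.4% of all genes. For replicate 1 of untreated CDKO the shares were 26% against 18.9% and 18% against 14.2%. Both arrays come from CDKO cells.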

How the data were processed

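RNA from fibroblasts was measured on 10 Affymetrix arrays, in 5 groups of 2 taken from the titles. The deposited log2 values, 1 per probe set and array, were made by the authors with GCRMA, a tool that the submitters' processing notes name without a version. The log2 scale was read from the values. Neither the labels nor the files name the chip definition. GCRMA adjusts background by probe sequence and equalises the arrays' distributions, so that a shift of all genes cannot be seen and low values compress.

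Of 45037 probe sets, with 64 control probe sets left out, 20032 had a mean of 4 or more in untreated WT cells or in the 8 others. They were fitted on 5 group means with limma 3.58.1 in R 4.3.3 (lmFit, eBayes, 5 residual degrees of freedom). The contrast was untreated WT minus the mean of the 4 other groups, with Benjamini-Hochberg adjustment over all 20032 and a threshold of 0.05. Values for genes come from this fit by the brightest probe set, with the platform's symbols updated through the RefSeq table. A single symbol was found for 34945 probe sets, several for 932 and none for 9160. Promoter sequences are from RefSeq, build GRCm38.p6.

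Genes named are the 15 largest differences in each direction among those called and outside the range of the 8 others, the 4 largest of each of 40 lists (8 for the larger lists), Dicer1, the controls, and 3 genes on either side of each boundary. Further list members were named after their values were seen. The members and lists were chosen with earlier results of these data known. Replicate numbers are shared by all groups. Over 10 pairs of groups, deviations of same-numbered arrays correlated at -0.45 to 0.44, with 2 above 0.1, and the numbers were not used as pairs. Alternatives changed the filter, variance prior, normalization, array weights, design, covariates, minimum change and arrays used. The fit was tested on simulated data.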

Additional observations from a re-analysis of the deposited data

Results flagged for a closer look

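Among 31 items, the 30 genes with the largest differences and the 18S control, 3 had 1 of the 8 other arrays far from the remaining 7, by Dixon's test at the 95% level. Chance alone flags about 1 in 20 such groups. Sfrp2 read 4.59 on replicate 1 of untreated CDKO, against 2.34 to 2.64 on the remaining 7, and the untreated WT arrays at 6.91 and 7.18 were above it. Sftpc read 2.76 on replicate 1 of CDKO at 1 µM, against 2.17 to 2.20. Krt8 read 3.15 on replicate 2 of untreated CDKO, against 2.92 to 2.98. The last 2 values are under the background level of 4.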

How the results depend on the processing

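The number of probe sets called in untreated WT against the mean of the other groups, 3756, became 2380 with no filter, 1416 with 1 probe set per gene, 8765 with array weights, 137 with the 18S covariate, 1253 with the spike-in covariate and 230 with a minimum difference of 1. It ran from 615 to 6496 with each array left out in turn. The number called against each group alone, 623, became 331 with a floor of 6, 188 with 1 probe set per gene, 13 and 28 with the 18S and spike-in covariates and 49 with a minimum difference of 1, and ran from 47 to 1862 with each array left out. The cause of these changes was not tested, except that fewer features or arrays entered some fits and that a minimum difference is a stricter test. Probe sets above and below all 8 others, 3158 and 2445, became 1463 and 1267 with 1 probe set per gene. With each array left out they ran from 3182 to 4360 and from 2488 to 3851. With the replicate number as a block, 3002 and 435 were called, and of the 30 genes with the largest differences 28 were still called. Those 30 kept their direction under all 11 alternatives and all 10 left-out arrays: 8 stayed called under all the alternatives and 18 with any array left out, and 22 lost the call with the 18S covariate. The 8 were Sftpc, Krt8, Ibsp, Gprin3, Myl1, Saa3, Mid1 and Xrn1. Each of the 8 passed the filter only through untreated WT cells and so had to be higher there. Of the 120 other list members called, Xaf1 alone changed sign, with -1.86 in the chosen fit and 0.0735 with the 18S covariate. The median of 12 of 37 lists changed sign under some setting, 8 of them with the 18S covariate, 3 with the spike-in covariate and 3 with an array left out. Both covariates were added for the medians after seeing the data. Where the median had exceeded the spread between replicates, the changes were those of the stratified epithelial (0.28, then -0.0206) and kidney lists (0.65, then -0.37) with the 18S covariate, the cell cycle inhibitors (-0.42, then 0.22) with the spike-in covariate, and the Hox genes (-0.08, then -0.13 to 0.0028 with each array left out). The cause was not tested. The untreated WT arrays had the 2 highest 18S values, so that this covariate and the group overlap in the fit. Levels under 4 are bounded by background.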
